A study of Danio rerio with 20 samples.

Results

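The genes described here are 10 regulators and products of primitive blood and endothelium in the zebrafish embryo: npas4l, etv2, tal1, lmo2, fli1, gata2a, gata1a, gfi1aa, hbbe3 and spi1b. They were chosen by gene symbol, and all 10 were found among 32057 gene IDs, 7 by their symbol and 3 (etv2, gata2a and spi1b) by a synonym in the RefSeq gene table. RNA was measured by poly(A)-selected sequencing of pools of about 50 whole embryos at 8, 10, 12, 14 and 16 hours post fertilization (hpf), with 2 libraries of each pool type at each stage and 20 libraries in all. Every embryo in both pool types carried homozygous mutations in puma (bbc3), noxa (pmaip1) and p21 (cdkn1a), which act below p53 in cell death and cell cycle arrest. PNP pools carried those 3 mutations alone (puma-/-; noxa-/-; p21-/-). MPNP pools also segregated a mutation in mdm2, whose product is a ubiquitin ligase that keeps p53 low. They were not genotyped, so mdm2-/- embryos were mixed with mdm2+/- and mdm2+/+ siblings, and about 25% would be expected to lack mdm2. A level in an MPNP pool is therefore an average over genotypes. Nothing in the labels states that both libraries of a group are separate clutches, and p-values measure the spread between these libraries, which may be technical.

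In zebrafish the bHLH-PAS factor npas4l acts at the top of the programme that forms blood and vessel progenitors from lateral mesoderm, and etv2, tal1 and lmo2 act below it. Their cells give rise to endothelium, marked by fli1, to primitive red cells, which depend on gata1a and make embryonic globins such as hbbe3, and to primitive myeloid cells, which depend on spi1b (Pu.1). gata1a and spi1b restrain each other, and gfi1aa encodes a zinc finger transcriptional repressor that acts within the primitive red cell programme. The comparison of MPNP with PNP asks how the mdm2 mutation changed transcript levels over these hours when the 3 p53 effectors were absent.

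Levels are given as TPM, a share of each library's transcripts scaled for transcript length, so levels of different genes can be set side by side. Between 13080 and 15326 genes per library reached 1 TPM, and mitochondrially encoded genes held 1.145% to 3.349% of TPM. The read depth behind these values is unknown. The mdm2 transcript overlapped between the pools at 8 and 10 hpf. It was higher in MPNP without overlap from 12 hpf on, with 111.4 and 151.12 TPM against 63.54 and 76.68 in PNP at 12 hpf, 187.31 and 285.7 against 86.25 and 85.83 at 14 hpf, and 316.75 and 324.83 against 112.91 and 114.17 at 16 hpf. The labels do not say what the mutation does to the transcript, so this shows only that the pools differed. Differences are given on the log2(TPM + 1) scale with their standard errors (SE) from limma, fitted to 14774 genes, and understate the change of low genes. A gene is called where its Benjamini-Hochberg adjusted p over all genes tested was under 0.05. All 10 members had a mean of at least 1 TPM over the 20 libraries and were tested, several of them only through their levels at 14 and 16 hpf.

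**Figure D1:**
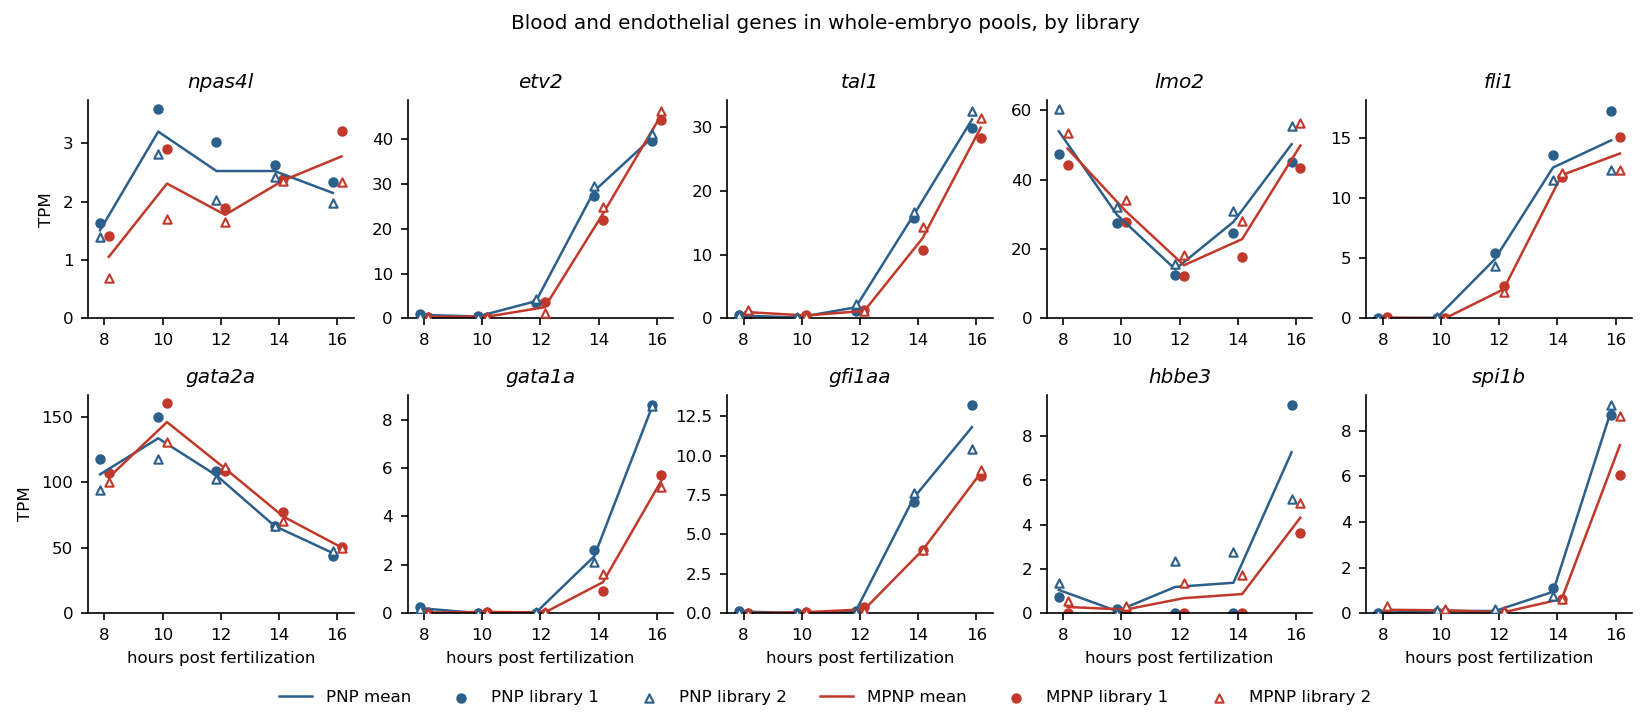
Level of each of the 10 genes in TPM (linear axis from 0, scaled per gene) against hours post fertilization. Circles are libraries numbered 1, triangles libraries numbered 2, and lines join the means of the 2 libraries. Taken at 1 TPM in both PNP libraries, npas4l, lmo2 and gata2a were present at 8 hpf, and fli1, etv2 and tal1 came up at 12 hpf. gfi1aa and gata1a reached that level at 14 hpf, and spi1b and hbbe3 at 16 hpf.

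npas4l stayed low at every stage. In PNP it was 1.63 and 1.39 TPM at 8 hpf, 3.59 and 2.81 at 10 hpf, 3.02 and 2.03 at 12 hpf, 2.63 and 2.42 at 14 hpf and 2.33 and 1.97 at 16 hpf. Both 10 hpf libraries lay above both 8 hpf libraries, and they overlapped those of 12 hpf. The rise of 0.74 ± 0.22 from 8 to 10 hpf was the only one among the 10 genes in that interval (limma adjusted p = 0.027), where 14.6% of all genes tested rose. It was lost when any 1 of the 4 PNP libraries at 8 and 10 hpf was left out. In MPNP npas4l was 1.41 and 0.70 TPM at 8 hpf, 2.91 and 1.71 at 10 hpf and 3.21 and 2.34 at 16 hpf. Between 8 and 16 hpf it rose by 0.89 ± 0.22 in MPNP (limma adjusted p = 0.0027; 40.1% of all genes rose), and the value in PNP was 0.33 ± 0.22 (adjusted p = 0.20). Whether the pool difference of npas4l varied over the stages did not pass the limma F test (unadjusted p = 0.28).

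Between 10 and 12 hpf, 3 of the 10 genes rose in PNP, beside 15% of all genes tested: fli1, etv2 and tal1. All 3 passed the level filter only through stages from 12 hpf on, so nothing is read from this count. fli1, an ETS factor of endothelial cells, went from 0 and 0.08 TPM at 10 hpf to 5.48 and 4.39 at 12 hpf in PNP, a rise of 2.51 ± 0.17 (limma adjusted p = 5.8e-07). It then reached 13.63 and 11.51 TPM at 14 hpf and 17.3 and 12.38 at 16 hpf, and the last of these steps did not pass the test (adjusted p = 0.69). etv2, the ETS factor that commits mesoderm to vessel and blood fates, went from 0.46 and 0.41 TPM at 10 hpf through 3.45 and 4.28 at 12 hpf and 27.25 and 29.47 at 14 hpf to 39.5 and 41.07 at 16 hpf. Its steps to 12 and 14 hpf were 1.76 ± 0.25 and 2.60 ± 0.25 (limma adjusted p = 0.00025 and 3.5e-05). tal1, a bHLH factor needed for blood, followed from 0.13 and 0.15 TPM at 10 hpf to 1.2 and 2.28 at 12 hpf, 15.83 and 16.74 at 14 hpf and 29.88 and 32.62 at 16 hpf. The groups of successive stages did not overlap for tal1 from 10 hpf on, and each of its 3 steps passed the test. The last of them (limma adjusted p = 0.023) was lost at both smaller pseudocounts and without any 1 of the 4 PNP libraries at 14 and 16 hpf.

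Another pair of regulators was present from the start and moved differently. lmo2, the LIM-only protein that bridges tal1 and GATA factors, was at 47.38 and 60.38 TPM in PNP at 8 hpf, fell to 27.62 and 32.04 at 10 hpf and to 12.54 and 15.8 at 12 hpf, and then came back through 24.74 and 30.87 at 14 hpf to 44.97 and 55.34 at 16 hpf. Both falls passed the test (-0.83 ± 0.25 and -1.03 ± 0.25, limma adjusted p = 0.029 and 0.0092), as did the rise from 12 to 14 hpf (0.93 ± 0.25, adjusted p = 0.033). The rise from 14 to 16 hpf did not pass it (0.83 ± 0.25, limma adjusted p = 0.085). That last rise was called under some alternatives, the library number as a block among them. The fall to 10 hpf was lost without PNP 8 hpf library 2 or either PNP library of 10 hpf, the fall to 12 hpf without PNP 10 hpf library 2 or PNP 12 hpf library 1, and the rise to 14 hpf without any 1 of the 4 PNP libraries at 12 and 14 hpf. From 8 to 10 hpf 8.66% of all genes tested fell, and from 10 to 12 hpf 8.73%. Its 16 hpf and 8 hpf libraries overlapped, and the difference between those stages was -0.10 ± 0.25. gata2a, a zinc finger factor of early ectoderm, blood progenitors and endothelium, was the most abundant of the 10 genes up to 14 hpf. It stood at 117.97 and 94.25 TPM in PNP at 8 hpf, 149.65 and 117.79 at 10 hpf, 108.31 and 102.31 at 12 hpf, 66.27 and 66.96 at 14 hpf and 43.98 and 47.87 at 16 hpf. It was the one member that fell between 8 and 16 hpf (-1.18 ± 0.14, limma adjusted p = 5.5e-06, 26.6% of all genes lower), with called falls from 12 to 14 hpf (3.69% of all genes) and from 14 to 16 hpf (1.83%). The earlier of these falls was lost without PNP 12 hpf library 1 or either PNP library of 14 hpf. The later one (limma adjusted p = 0.046) was lost without any of 14 of the 20 libraries, at both smaller pseudocounts and with other scalings.

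The red cell and myeloid genes came up last. gata1a, the master regulator of red cells, was at or below 0.25 TPM in every library up to 12 hpf. In PNP it was 2.6 and 2.1 TPM at 14 hpf and 8.6 and 8.56 TPM at 16 hpf, with called rises of 1.71 ± 0.15 and 1.52 ± 0.15 (limma adjusted p = 1.7e-05 and 8.2e-05). gfi1aa was at or below 0.36 TPM in every library up to 12 hpf and stood at 7.05 and 7.62 TPM in PNP at 14 hpf and 13.2 and 10.45 at 16 hpf. Its step of 2.91 ± 0.14 from 12 to 14 hpf had the smallest adjusted p of the 7 members that rose in that interval (limma adjusted p = 3.5e-07), in which 5.5% of all genes tested rose. The other 6 were tal1, etv2, gata1a, fli1, lmo2 and spi1b.

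spi1b, the myeloid factor, was at or below 0.29 TPM in every library up to 12 hpf, at 1.12 and 0.75 TPM in PNP at 14 hpf and at 8.68 and 9.12 at 16 hpf. The last step, 2.36 ± 0.18, was the largest of the 4 rises called from 14 to 16 hpf (spi1b, gata1a, tal1 and gfi1aa; 2.95% of all genes rose). The gfi1aa rise in that interval was lost without either PNP library of 14 hpf or PNP 16 hpf library 1, and the spi1b rise from 12 to 14 hpf without PNP 12 hpf library 1 or PNP 14 hpf library 1. hbbe3, an embryonic beta globin, was 9.38 and 5.15 TPM in PNP at 16 hpf and 3.63 and 4.99 TPM in MPNP. Its value followed the library number at 12 and 14 hpf, where it was 0 in all 4 libraries numbered 1 and between 1.35 and 2.74 TPM in the 4 numbered 2. With the number as a block, libraries numbered 2 were higher for hbbe3 by 0.72 ± 0.12 (limma adjusted p = 0.0010), beside 55.4% of all genes that differed by number. Its rise of 1.99 ± 0.68 from 8 to 16 hpf (adjusted p = 0.021) was lost when PNP 8 hpf library 1 or PNP 16 hpf library 1 was left out. Embryonic globin genes are close copies of each other, as are gfi1aa and gfi1ab, and how reads shared between copies were assigned is unknown here.

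From 8 to 16 hpf, 7 of the 10 members rose in PNP, beside 37.7% of all genes tested. The median over the 10 was 3.15, beside 0.17 over all genes. tal1, gata1a, gfi1aa, hbbe3 and spi1b passed the level filter only through their 14 and 16 hpf levels. etv2 and fli1 passed it only through their levels from 12 hpf on. The rises of these 7 genes were thus largely fixed by that filter, and nothing is read from the count or the median beside all genes. The same limit holds for their steps from 10 hpf on. By 16 hpf the order of levels in PNP was lmo2 (50.2 ± 7.33 TPM, SD, n = 2), gata2a (45.9 ± 2.75), etv2 (40.3 ± 1.11), tal1 (31.3 ± 1.94), fli1 (14.8 ± 3.48), gfi1aa (11.8 ± 1.95), spi1b (8.90 ± 0.311), gata1a (8.58 ± 0.0283), hbbe3 (7.27 ± 2.99) and npas4l (2.15 ± 0.255). Among neighbours in that order, the libraries of lmo2 and gata2a, of fli1 and gfi1aa, and of gata1a and hbbe3 overlapped.

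The order of onset was read in 2 ways, both descriptions. Taking the first stage at which both PNP libraries reached 1 TPM, npas4l, lmo2 and gata2a were on at 8 hpf, etv2, tal1 and fli1 at 12 hpf, gata1a and gfi1aa at 14 hpf, and hbbe3 and spi1b at 16 hpf. MPNP gave the same stage for 8 of the 10 genes, with npas4l at 10 hpf and gata1a at 16 hpf. This order depended on the level asked for. At 0.5 TPM, etv2 and hbbe3 were on at 8 hpf in PNP and spi1b at 14 hpf, with hbbe3 at 0.72 and 1.37 TPM at 8 hpf. At 2 TPM, npas4l was on at 10 hpf in PNP and tal1 at 14 hpf. The other reading was the time at which the stage means, joined by straight lines, first reached 50% of their highest value. In PNP this gave fli1 at 12.65 h, etv2 at 13.33 h, gfi1aa at 13.61 h, tal1 at 13.91 h, gata1a at 14.62 h, hbbe3 at 14.77 h and spi1b at 14.88 h. gfi1aa thus came before tal1 by this measure, after it by the first at 1 TPM, and at the same stage at 2 TPM. The ranges of the numbered libraries touched or overlapped for etv2 and gfi1aa, and that of hbbe3 overlapped all but fli1, so those neighbours are not ordered beyond the spread. The PNP range of gfi1aa (13.37 to 13.87 h) ended just before that of tal1 (13.88 to 13.94 h), and their MPNP ranges overlapped. gfi1aa and tal1 are thus not ordered either. All 7 genes had their highest mean at the last stage, so these times would move if levels rose further.

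**Figure D2:**
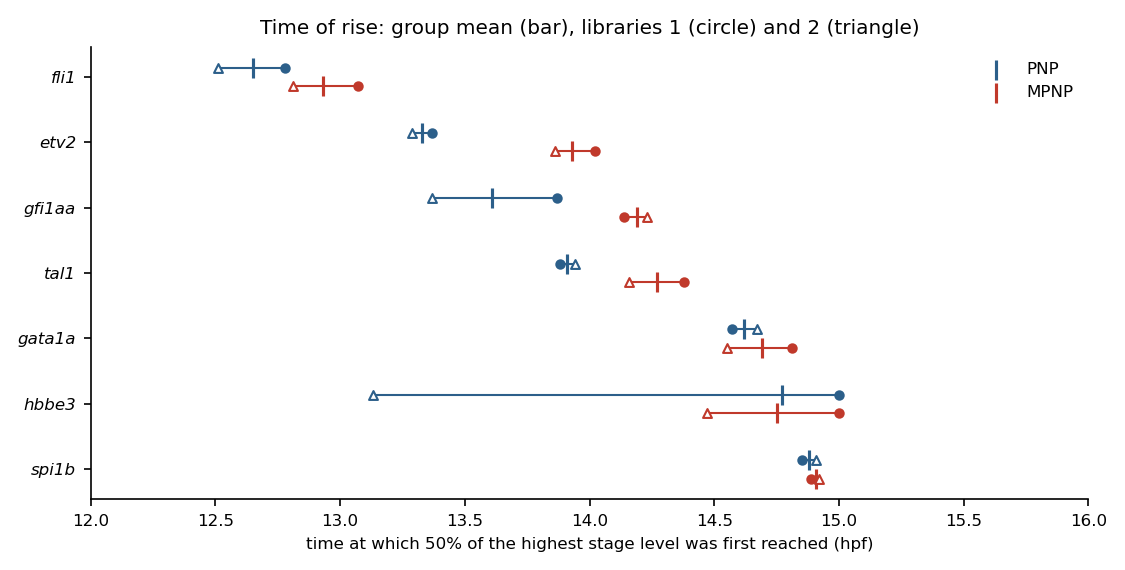
Time in hours post fertilization at which 7 genes first reached 50% of their highest stage level. Bars are from group means, circles from libraries numbered 1 and triangles from libraries numbered 2, each joined over the 5 stages. fli1, etv2, gfi1aa and tal1 were later in MPNP (red) than in PNP (blue) with no overlap, and gata1a, hbbe3 and spi1b overlapped. The share of all genes with later times in MPNP was not counted.

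In MPNP the order of these means was fli1 (12.93 h), etv2 (13.93 h), gfi1aa (14.19 h), tal1 (14.27 h), gata1a (14.69 h), hbbe3 (14.75 h) and spi1b (14.91 h). The 4 genes with the earliest times by this measure (fli1, etv2, gfi1aa and tal1) had later times in MPNP than in PNP in both numbered series. How many of all genes had later times in MPNP was not counted. gfi1aa was chosen for its fall in MPNP, so nothing is read from the count of 4. For etv2 the libraries gave 14.02 h and 13.86 h in MPNP and 13.37 h and 13.29 h in PNP. For gfi1aa they gave 14.14 h and 14.23 h against 13.87 h and 13.37 h. The libraries as a whole also differed in stage. An offset was estimated from the genes tested, without the members and the pathway list described below. It put MPNP behind PNP by 0.188, 0.379, 0.378 and 0.193 h at 8, 10, 12 and 14 hpf and ahead of it by 0.22 h at 16 hpf. The part of this offset in the later times was not tested.

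The fall of gfi1aa in MPNP, for which the gene was chosen, is given as a description. At 14 hpf gfi1aa was 4.02 and 3.98 TPM in MPNP and 7.05 and 7.62 TPM in PNP. At 16 hpf it was 8.7 and 9.12 TPM in MPNP and 13.2 and 10.45 TPM in PNP. At both stages each MPNP library was below both PNP libraries, and the MPNP mean was lower by 45.5% at 14 hpf and by 24.7% at 16 hpf. The log2 differences were -0.74 ± 0.14 and -0.36 ± 0.14. The difference at 14 hpf was between -0.79 and -0.69 when 1 of the 4 libraries of that stage was left out. The other libraries do not enter it. Before 14 hpf there was too little gfi1aa in either pool type for a comparison. In these whole-embryo pools, fewer cells of a type and less RNA per cell cannot be told apart. Only gfi1aa of the 10 members was past the threshold at 14 hpf, where 0.0812% of all genes were lower and 0.684% differed either way. It was no longer past the threshold on leaving out any 1 of the 4 libraries of that stage, or with the developmental offset removed, where its difference was -0.58. Since that contrast chose it, nothing is read from the count. At the other stages limma called none of the 10 at this threshold, and 0.311%, 0.203%, 0.291% and 1.39% of all genes at 8, 10, 12 and 16 hpf. At an unadjusted p under 0.05 the members other than gfi1aa were etv2 and fli1 at 12 hpf, gata1a at 14 hpf and gata1a at 16 hpf, and 0 at 8 and 10 hpf.

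gata1a was also lower in MPNP at both late stages. It was 0.93 and 1.63 TPM in MPNP and 2.6 and 2.1 TPM in PNP at 14 hpf, and 5.7 and 5.24 TPM against 8.6 and 8.56 TPM at 16 hpf. The groups did not overlap at either stage, and the MPNP mean was lower by 45.5% at 14 hpf and by 36.3% at 16 hpf. Neither stage passed the test alone: the differences were -0.57 ± 0.15 and -0.57 ± 0.15, with limma adjusted p = 0.17 and 0.12. With the developmental offset removed, gata1a at 16 hpf was past the threshold (-0.73, limma adjusted p = 0.019; 0.0948% of all genes lower), and at 14 hpf the difference was smaller (-0.43, adjusted p = 0.40). Leaving out MPNP 14 hpf library 1 gave -0.35 at 14 hpf. Averaged over the 5 stages, gata1a was the only one of the 10 members called (-0.26 ± 0.07, limma adjusted p = 0.039), beside 2.67% of all genes called lower and 5.29% called either way. At 8, 10 and 12 hpf, stages that enter this average, gata1a was at or below 0.25 TPM in every library. That average call was lost on leaving out any of 18 of the 20 libraries, with adjusted p from 0.011 to 0.084 and differences from -0.31 to -0.22, and held without MPNP 14 hpf library 2 and without PNP 14 hpf library 2. It was also lost with a smaller pseudocount (adjusted p = 0.22 at 0.1) and with median centring. Over 14 and 16 hpf alone, a comparison chosen after the values had been seen, gata1a was lower by -0.57 ± 0.11 (limma adjusted p = 0.0089, where 0.42% of all genes were lower), with adjusted p from 0.0030 to 0.048 when single libraries were left out and 0.40 at the pseudocount of 0.1.

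**Figure D3:**
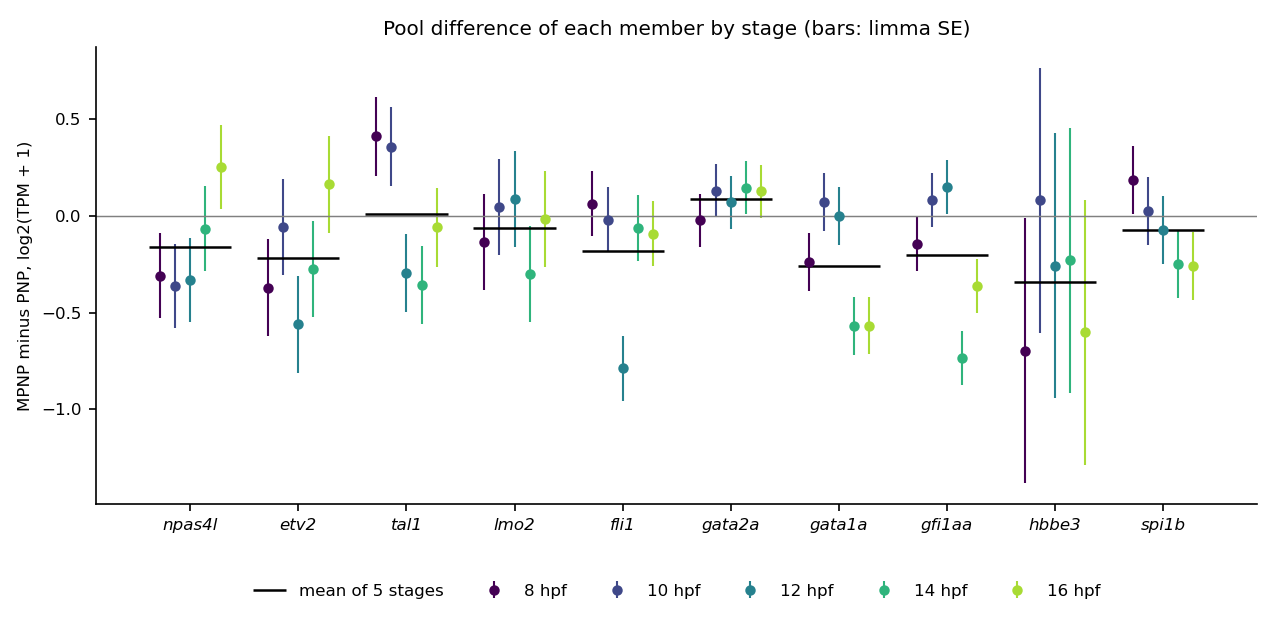
MPNP minus PNP on the log2(TPM + 1) scale for each gene at the 5 stages (points, early to late from dark to light; bars are limma SE) and their mean (black line). gata1a and gfi1aa lay below 0 at 14 and 16 hpf, fli1 at 12 hpf, and gata2a lay slightly above 0 from 10 hpf.

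Of the early regulators, fli1 had its difference at its first stage. At 12 hpf it was 2.69 and 2.17 TPM in MPNP and 5.48 and 4.39 TPM in PNP, a mean lower by 50.8% with no overlap. The groups overlapped at 14 hpf (11.79 and 12.1 TPM against 13.63 and 11.51) and at 16 hpf (15.14 and 12.34 against 17.3 and 12.38). The 12 hpf difference of -0.79 ± 0.17 did not pass the test (limma adjusted p = 0.083). It passed with the library number as a block (adjusted p = 0.025; 0.609% of all genes lower), and it was -0.44 (adjusted p = 0.71) once the developmental offset was removed.

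etv2 and tal1 were below PNP at 14 hpf and close to it or above it at 16 hpf. etv2 was 21.85 and 24.74 TPM in MPNP at 14 hpf against 27.25 and 29.47 in PNP, and 44.23 and 46.22 TPM at 16 hpf against 39.5 and 41.07. Neither stage overlapped, and the sign turned between them (-0.27 ± 0.25 and 0.16 ± 0.25, neither past the threshold). At 12 hpf the MPNP libraries were apart from each other, at 3.73 and 1.28 TPM, and etv2 was called in the stage average (adjusted p = 0.016) when the first of these was left out. tal1 was 10.82 and 14.39 TPM in MPNP at 14 hpf against 15.83 and 16.74 in PNP, a mean lower by 22.6% with no overlap, and at 16 hpf the groups overlapped (28.39 and 31.55 against 29.88 and 32.62). Its average over stages was 0.01 ± 0.09.

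gata2a went the other way, by little. It was above PNP with no overlap at 12, 14 and 16 hpf, with 76.99 and 70.62 TPM against 66.27 and 66.96 at 14 hpf and 50.35 and 50.08 against 43.98 and 47.87 at 16 hpf. None of these differences passed the test, and the average was 0.09 ± 0.06 (limma adjusted p = 0.55). lmo2 overlapped between the pools at all 5 stages, and its libraries numbered 2 were above those numbered 1 at each stage in each pool type, by 0.36 ± 0.04 with the number as a block (limma adjusted p = 7.9e-05). At 16 hpf spi1b was 6.08 and 8.67 TPM in MPNP against 8.68 and 9.12 in PNP. The 16 hpf values of spi1b and hbbe3 did not overlap between the pools but differed by less than the threshold asks (-0.26 ± 0.18 and -0.60 ± 0.68).

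Counting over the 10 genes, 6 had MPNP entirely below PNP at 14 hpf (npas4l, etv2, tal1, gata1a, gfi1aa and spi1b), and 12.6% of all genes tested did. At 16 hpf 4 did (gata1a, gfi1aa, hbbe3 and spi1b), and 14.4% of all genes did. At 12 hpf it was 2 of 10, npas4l and fli1, beside 18.4%. With MPNP entirely above PNP, gata2a stood alone at 12 hpf (9.97% of all genes) and at 14 hpf (13.5%), and gata2a, etv2 and npas4l did so at 16 hpf (15.6%). The average difference was negative for 8 of the 10 and for 59.6% of all genes, with a median of -0.17 beside -0.03 over all genes. gfi1aa is in these counts and was chosen for its fall, so nothing is read from them or from the median. An F test of whether the pool difference varied over the stages called none of the members (0.102% of all genes were called by limma). Among the 9 members other than gfi1aa it gave 2 at an unadjusted p under 0.05, fli1 and gata1a, with adjusted p of 0.80 and 0.82.

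Set against tal1 in the same library, gata1a was 8.6% and 11.33% of the tal1 level in MPNP at 14 hpf and 16.42% and 12.54% in PNP. At 16 hpf it was 20.08% and 16.61% in MPNP and 28.78% and 26.24% in PNP. gfi1aa was 37.15% and 27.66% of tal1 in MPNP at 14 hpf and 44.54% and 45.52% in PNP, and 30.64% and 28.91% against 44.18% and 32.04% at 16 hpf. Both ratios were lower in MPNP without overlap at both stages. The spi1b ratio at 16 hpf was also lower in MPNP without overlap, at 21.42% and 27.48% against 29.05% and 27.96% in PNP, and it overlapped at 14 hpf. The lmo2 ratio overlapped at both stages, as did that of fli1 at 16 hpf. How many of all genes would separate in such a ratio was not counted. gfi1aa was chosen for its fall in MPNP, so nothing is read from the separations in this paragraph. The etv2 ratio overlapped at 14 hpf and was higher in MPNP at 16 hpf without overlap, at 155.79% and 146.5% against 132.2% and 125.9%. The fli1 ratio at 14 hpf was 108.96% and 84.09% against 86.1% and 68.76%, with overlap.

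The level of each gene in MPNP was also placed on the PNP time course by straight lines between stages. The gfi1aa mean of MPNP at 14 hpf was that of PNP 0.923 h earlier, and at 16 hpf 1.298 h earlier. For gata1a these lags were 0.92 h and 0.998 h. For tal1 they were 0.506 h and 0.171 h and for lmo2 0.728 h and 0.033 h, so both were nearly level with PNP by 16 hpf. For spi1b they were 0.746 h and 0.383 h. hbbe3 had a lag of 1.003 h at 16 hpf, so a late lag was not particular to gata1a and gfi1aa, and gfi1aa was chosen for its fall. At 14 hpf the lag was 0.414 h for etv2 and 0.164 h for fli1. No lag was obtained for npas4l and gata2a, for etv2 at 16 hpf or for hbbe3 at 14 hpf. At 16 hpf the fli1 level of MPNP was that of PNP 0.969 h earlier, on a curve that was almost flat. By the offset from the other genes tested, MPNP was behind by 0.193 h at 14 hpf and ahead by 0.22 h at 16 hpf. These lags rest on 2 libraries a group and were not tested.

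Other genes of the same pathways were taken from a list of 103 names, of which 84 were found and 47 were tested, the members included. In PNP from 8 to 16 hpf, 23 of the 47 rose and 10 fell, where 37.7% of all genes rose and 26.6% fell, with a median of 0.47 beside 0.17 over all genes. Of the 37 that are not members, 16 rose and 9 fell. Some of the risers, egfl7, robo4, she, nrp1b and sox7 among them, passed the level filter only through their 14 and 16 hpf levels. Their rises were thus largely fixed by that filter, and nothing is read from the counts of risers in this list. Among 9 endothelial genes, 6 rose and none fell at this threshold. The largest of these was the guidance receptor gene robo4 (3.40 ± 0.16), from 0.17 and 0.23 TPM at 8 hpf to 13.01 and 10.49 TPM at 16 hpf. The secreted factor gene egfl7 (3.22 ± 0.20) and the adaptor gene she (2.17 ± 0.15) rose too, as did nrp1b, a VEGF co-receptor gene (1.82 ± 0.21). Among 12 upstream and progenitor factors 6 rose and 1 fell, and sox7, an endothelial SoxF factor, was among those that rose (1.91 ± 0.19).

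Of the genes listed as erythroid regulators, 5 of 11 were higher and 5 lower. The libraries are whole embryos, so the tissue behind each level in this paragraph is unknown. gata1a was at 0.25 and 0.16 TPM in PNP at 8 hpf. cbfb, the partner subunit of Runx factors, rose by 3.68 ± 0.27 and myb, a regulator of blood progenitors, by 2.95 ± 0.15. The 5 that fell were klf17, klf3, drl, blf and hemgn. klf17 went from 185.72 and 172.61 TPM in PNP at 8 hpf to 52.79 and 57.72 TPM at 16 hpf, and drl from 17.85 and 17.93 TPM to 5.9 and 3.49 TPM. Of the heme, globin and red cell genes, 5 of 11 rose and 2 fell. The embryonic alpha globin hbae3 rose by 4.53 ± 0.40, from 0 and 0.37 TPM at 8 hpf to 27.96 and 24.18 TPM at 16 hpf, and the heme synthesis genes cpox and alad rose by 2.18 ± 0.25 and 1.57 ± 0.21, while the carbonic anhydrase gene cahz fell by 0.86 ± 0.10. Of 4 myeloid genes tested, spi1b rose, and cebpb and lcp1 fell by 2.27 ± 0.10 and 3.75 ± 0.20. The leukocyte actin bundling gene lcp1 was at 316.85 and 328.46 TPM in PNP at 8 hpf, where spi1b was at 0 in both, and at 18.26 and 28.99 TPM at 16 hpf.

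**Figure D4:**
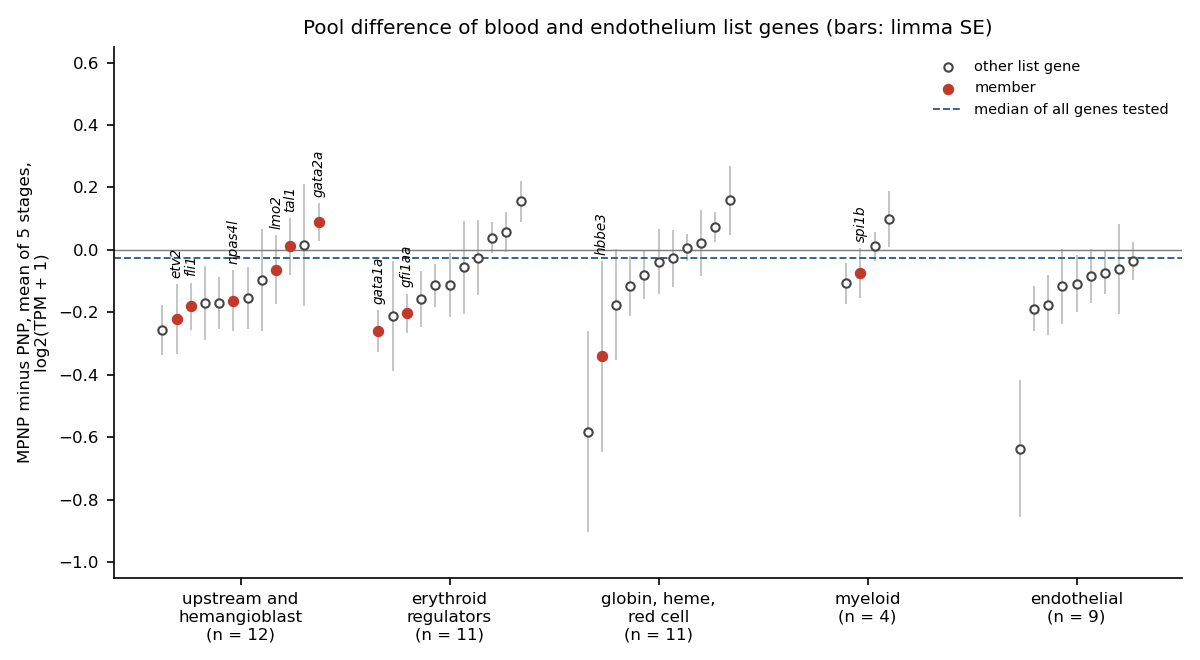
MPNP minus PNP on the log2(TPM + 1) scale, averaged over the 5 stages, for the 47 list genes tested, grouped by role and sorted within each role. Red points are the 10 members, white points other list genes, bars are limma SE, and the dashed line is the median of all genes tested (-0.03). All 9 endothelial genes lay below 0, none of them past the threshold.

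Between the pools, gata1a was the only list gene called in the stage average (1 of 47 lower, none higher by limma at this threshold). Of all genes, 2.67% were called lower. With the library number as a block, ets1, an endothelial ETS factor, was called lower too, where 10.4% of all genes were lower. Nothing is read from either count. Of the 47, 12 had a positive difference, beside 40.4% of all genes, with a median of -0.10. The 9 endothelial genes were all negative with a median of -0.11, and limma called none (stab2 and robo4, 2 of the 9, had an unadjusted p under 0.05). robo4 was 2.39 and 2.21 TPM in MPNP at 14 hpf against 3.49 and 4.14 in PNP, and 9.01 and 9.83 TPM against 13.01 and 10.49 at 16 hpf. Neither stage overlapped, where 12.6% and 14.4% of all genes were lower without overlap. Its average difference was -0.19 (limma adjusted p = 0.18). Over 14 and 16 hpf, a comparison chosen after the values had been seen, limma called it lower only with the developmental offset removed (0.413% of all genes lower). egfl7 and kdr, a VEGF receptor gene, overlapped between the pools at 14 and 16 hpf. In the erythroid group 3 of 11 were positive, with a median of -0.11. myb went the other way from gata1a. It was above PNP without overlap at 8, 10 and 12 hpf, where 13.6%, 8.58% and 9.97% of all genes were. At 12 hpf it was 2.85 and 3.13 TPM in MPNP against 2.27 and 2.42 in PNP. It overlapped at 14 hpf and at 16 hpf (13 and 13.52 TPM in MPNP against 13.17 and 11.83). Of the list genes that are not members, 4 had a limma unadjusted p under 0.05 in the stage average. These were myb (higher) and ets1, stab2 and robo4 (lower), none of them called. At 16 hpf hbae3 was 21.23 and 20.89 TPM against 27.96 and 24.18, without overlap and not called.

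Markers of other tissues gave the following beside the lower gata1a and gfi1aa. The 4 primitive red cell markers (gata1a, hbbe3, hbae3 and alas2) summed to 32.09 to 33.17 TPM in MPNP at 16 hpf and to 40.44 to 48.6 TPM in PNP. At 14 hpf their sums overlapped, at 10.44 to 22.76 TPM in MPNP and 15.15 to 22.28 TPM in PNP. These sums include gata1a and hbbe3 and so are not separate from the member values. The sums that follow are those of 16 hpf. The 4 endothelial markers (kdrl, cdh5, tie1 and fli1) summed to 16.55 to 17.8 TPM in MPNP against 15.79 to 20.53 TPM in PNP. The 4 paraxial mesoderm markers (tbx16, msgn1, tbx6 and myod1) summed to 185.87 to 214.27 TPM against 206.25 to 236.66 TPM, and the 3 lateral plate markers (hand2, tbx5a and gata5) to 58.6 to 75.57 TPM against 58.96 to 81.48 TPM. The neural markers sox2 and sox19a summed to 284.34 to 319.21 TPM in MPNP and 344.11 to 391.69 TPM in PNP. Of the paraxial, lateral plate, notochord and neural markers tested, 9 in all, limma called none in the stage average (msgn1, 1 of the 9, had an unadjusted p under 0.05), and each of the 9 had a negative difference, as did 59.6% of all genes. Of the hair cell and neuronal markers, where gfi1 genes are also used, atoh1a had 16 hpf values of 1.35 and 1.98 TPM in MPNP against 2.58 and 2.18 in PNP, and the other, pou4f3, was at 0 in every library at 14 and 16 hpf. Their part in the gfi1aa result was not tested.

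Genes with a pattern over the 20 libraries most like gfi1aa, by Pearson r of log2(TPM + 1), included rx2 (0.988), hmx4 (0.987), ebf1 (0.985) and musk (0.985), and 611 genes tested had an r above 0.9. Those most like gata1a were thbs4 (0.991), six2 (0.989), col5a2 (0.988), seraf (0.988) and nos1 (0.985), with 417 above 0.9. These values are descriptions over libraries that share the 5 stages, at which many genes rose. Among the members, gfi1aa was closest to tal1 (0.98), etv2 (0.963) and gata1a (0.959), and gata1a was close to spi1b (0.956). npas4l had no r above 0.38 with any other member.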

How the data were processed

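The authors deposited TPM for 32057 Ensembl gene IDs in 20 libraries, beside 4 unnamed columns that are empty. Per the submitters' processing notes the genome build was GRCz11, and R 4.3.3, DESeq2 1.42.1, HTSeq 0.12.3, RSEM 1.3.3 and STAR 2.7.3a were used; the step that each served is unknown here. Depth cannot be read from TPM, and no counting interval is given. A gene name table paired 28988 IDs with symbols.

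The deposited TPM were analysed as log2(TPM + 1) with limma 3.58.1 in R 4.3.3: genes with a mean of at least 1 TPM, 1 mean per group, 10 residual degrees of freedom, an intensity trend, 2-sided p-values and Benjamini-Hochberg adjustment over 14774 genes. The script was tested on simulated data. Library numbers come from the labels, which do not say what they mark. Same-numbered libraries deviated together in MPNP and PNP (r of 0.485, 0.586, 0.615, 0.539 and 0.601 from 8 to 16 hpf), so a fit with the number as a block was also made. Some of the calls it changed are given, and others, mostly steps between stages in PNP, are not. The developmental offset of each library was its deviation in hours along the mean course of the genes tested, with members and list genes left out. Alternatives varied the pseudocount, filter, scaling, block, offset and each library.

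All 10 members are named. Of the pathway list, genes called in the stage average and up to 4 per role with the smallest p from 8 to 16 hpf are named. Other named list genes, and the pool values given for kdr, myb and robo4, were chosen after their values were seen. The 5 genes most like gfi1aa and the 5 most like gata1a were taken by Pearson r, and 1 of those for gfi1aa is not reported here. Members and lists were chosen with earlier results of these data known.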

Additional observations from a re-analysis of the deposited data

Results flagged for a closer look

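Separation of the libraries turned direction between stages for npas4l and etv2. For npas4l both MPNP libraries were below both PNP libraries at 12 hpf (log2 difference -0.33) and at 14 hpf (-0.066). They were above them at 16 hpf (0.25). The npas4l groups nearly touched at both later stages. At 14 hpf the higher MPNP library (2.38 TPM) lay just under the lower PNP library (2.42). At 16 hpf the lower MPNP library (2.34 TPM) lay just over the higher PNP library (2.33). The turn of npas4l thus rests on very small gaps. For etv2 both MPNP libraries were below both PNP libraries at 14 hpf (-0.27) and above them at 16 hpf (0.16). These turns were not tested pair by pair. The limma F test over all stages did not call either gene, with unadjusted p of 0.28 for npas4l and 0.33 for etv2. The offset of the whole libraries also turned sign between 14 and 16 hpf, from MPNP behind by 0.193 h to ahead by 0.22 h, and its part in these values was not tested.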

How the results depend on the processing

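Over all genes, 782 were called in the stage average. The count was 493 with a filter at a mean of 5 TPM, 2574 with the replicate block, 2297 with the block and the offset removed, 146 and 282 within libraries numbered 1 and 2, and 353 over 14 and 16 hpf alone, an alternative added after seeing the data. Of the members, 1 was called in the average and 0 at pseudocounts of 0.1 and 0.5, with the filter at 5 TPM, with median centring, with the block and offset, within each number and with additive terms for stage and pool. It was 2 over 14 and 16 hpf alone, gata1a and gfi1aa, where 0.42% of all genes were called lower. gfi1aa was chosen for its fall, and that comparison after the values had been seen, so nothing is read from the count of 2. For the stage average the count was 0 to 1 when single libraries were left out. With the block alone gata1a stayed just under the threshold (limma adjusted p = 0.0496).

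At single stages 1 member was called, gfi1aa at 14 hpf, the gene chosen for its fall. None (0) was called at either smaller pseudocount, with the filter at 5 TPM, with median centring or with only the libraries of the groups compared, 2 were with the replicate block, and 0 to 2 when single libraries were left out (0 without MPNP 14 hpf library 2, PNP 14 hpf library 1 or PNP 14 hpf library 2, and 2 without MPNP 12 hpf library 1). An unchanged count can hide a change of gene: without MPNP 14 hpf library 1, and with the offset removed, gfi1aa was not called at 14 hpf and gata1a was called at 16 hpf. From 8 to 16 hpf in PNP, 7 members rose, and 3 with the filter at 5 TPM, which removes low members. From 8 to 10 hpf the count of 1 became 0 with that filter, median centring, quantile normalization or only the groups' own libraries, 2 with the block with or without the offset, and 0 to 1 without single libraries (without PNP 10 hpf library 2 the gene called was gata2a in place of npas4l). From 12 to 14 hpf 7 became 4 with the filter and 0 with the groups' own libraries. From 14 to 16 hpf 4 became 2 at either smaller pseudocount, 1 with the filter, 7 with the block and offset, 1 with the groups' own libraries, and 2 to 4 without single libraries (2 without PNP 14 hpf library 1, PNP 14 hpf library 2 or PNP 16 hpf library 1).

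For the list, 1 gene in the stage average became 0 at both smaller pseudocounts, with the filter at 5 TPM, with median centring and within each number. It became 2 with no filter and with the replicate block. Over 14 and 16 hpf alone it was also 2, again gata1a and gfi1aa. In that comparison robo4 was called lower too with the offset removed, and lcp1 was called higher with the replicate block. For the stage average the count was 0 to 3 without single libraries. The 23 list genes higher from 8 to 16 hpf became 36 with no filter and 9 with the filter at 5 TPM. Of 640 values of single members under alternatives, 606 kept their direction and side of the threshold. Many of these alternatives left out a library outside the groups compared, which cannot change the difference. Nothing is thus read from that share. The causes of these changes were not tested beyond the number of genes or libraries each alternative uses. With 2 libraries a group and unknown depth, values near or under 1 TPM carry little weight.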

Other observations

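Of the list genes found, 37 were below the filter on the mean level, and 17 of these reached 1 TPM in a group mean. Their levels at 16 hpf, chosen for naming after they were seen, were low in both pools. alas2, the erythroid enzyme that starts heme synthesis, had means of 1.79 TPM in MPNP and 2.61 TPM in PNP. gfi1b, a paralog of gfi1aa, was at 3.38 and 2.77 TPM in MPNP and 2.22 and 2.16 TPM in PNP at 16 hpf, and at 0.94 and 0.85 TPM against 0.41 and 0.25 TPM at 14 hpf. Its MPNP libraries were above its PNP libraries at both stages, the opposite order to gfi1aa. gfi1ab, the closer copy, was at 2.45 and 1.98 TPM in MPNP and 2.24 and 3.28 TPM in PNP at 14 hpf, and at 1.77 and 2.75 TPM against 2.97 and 3.26 TPM at 16 hpf. The endothelial genes kdrl, cdh5 and tie1 had means of 1.74, 0.96 and 0.74 TPM in MPNP and 1.79, 0.74 and 0.795 TPM in PNP at 16 hpf. The C-type lectin gene clec14a was at 2.26 and 3.85 TPM in MPNP and 2.15 and 2.72 TPM in PNP. With no filter on the level, limma called 1 of the genes below it in the stage average, sptb, a spectrin gene of the red cell membrane, as higher in MPNP.

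Among the tested list genes the largest average differences were those of stab2, a scavenger receptor gene, and hbae1.3, an alpha globin gene, and neither was called. For stab2 the MPNP libraries differed among themselves, with 4.16 and 0.91 TPM at 12 hpf and 2.59 and 5.65 TPM at 14 hpf against 8.7 and 6.19 TPM in PNP at 14 hpf. hbae1.3 was at 0 in many libraries and at 4.55 TPM in 1 PNP library at 14 hpf.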
